A study of Mus musculus with 23 samples.

Results

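A set of 150 genes was low in wild-type macrophages 4 h after bacterial lipopolysaccharide (LPS) and had returned by 24 h. They were chosen from wild-type libraries alone, as follows. Levels were taken as CPM, each count over its column total on a common scale, and the wild-type mean of 3 libraries was formed at each time. A gene was kept with at least 10 CPM at 0 h, at most 25% of its 0 h level at 4 h, and at least 50% at 24 h. Of 55401 genes in the table, 571 met these conditions, and the 150 with the lowest 4 h share were taken. Another 651 genes stood at 25% or less at 4 h but missed the 24 h condition. The wild-type values at 0, 4 and 24 h therefore chose the genes and are given here as a description with no test. The last gene inside, the predicted locus Gm12316, stood at 12.4% of its 0 h level at 4 h, and the first outside, Snx21, at 12.6%. Predicted loci make up 12 of the 150.

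The libraries come from bone marrow-derived macrophages (BMDMs), cells grown from mouse bone marrow, labelled Selenow knock-out or wild-type. The product of Selenow is selenoprotein W, which carries selenocysteine. Each genotype was untreated (0 h) or had received LPS at 100 ng/ml for 4, 8 or 24 h, with 3 libraries in each of 8 groups except 2 for the labelled knock-out at 24 h. The labels give no strain, sex, age, allele or number of animals, so p-values measure the spread between 23 libraries, which may be technical. No untreated library carries a later time, so LPS and time in culture cannot be told apart.

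Macrophages sense LPS through Toll-like receptor 4, which drives NF-κB and interferon-regulatory factors and raises cytokine transcripts within hours. The same response lowers many transcripts of the resting cell, through reduced transcription and through mRNA decay. Part of that lowering lasts, and part is transient. Receptors for chemokines and lipids, repressors of the circadian clock, actin regulators and brakes on signalling are among the resting-state genes studied in this setting. In bulk RNA, fewer cells of a type and less RNA per cell cannot be told apart.

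Libraries held 39001456 to 41819953 counted fragments, and a count of 0 allows at most 0.0769 CPM in a library (3 counts, counting error only). Levels below are CPM scaled by edgeR's TMM factors, unless column totals are named. These factors ranged from 0.786 to 1.36 and differed between the times. Over 9432 genes with at least 10 CPM in wild-type cells at 0 h, the median log2 ratio of 4 h to 0 h was -0.77 on column totals and -0.16 after TMM. Shares on column totals, which the rule used, are therefore lower than the TMM shares. Selenow stood at 82.4% to 102% of the wild-type mean of its time in libraries 13, 16, 19 and 22 labelled knock-out, and at 32.6% to 63.9% in the other 7. Those 4 libraries go against their label, and genotype comparisons are named by label throughout. Summed macrophage markers were high in every library, 11708 to 27086 TMM-scaled CPM over 7 genes, with Lyz2 the largest part, and no marker was one of the 150 genes. The 7 did not move together. Mertk means at 0, 4, 8 and 24 h were 52.9, 19.4, 18.4 and 60.5 in labelled knock-out cells. In wild-type cells they were 43.2, 21.7, 20.1 and 39.8. Lyz2 was also lower at 4 and 8 h and back by 24 h in both genotypes. Adgre1, Itgam and Fcgr1 were higher after LPS, and Csf1r and Cd68 changed less. Summed neutrophil and B-cell lists were lower at 4 h and lowest at 24 h in both genotypes. Of the neutrophil genes, Ngp, Ltf, Camp, Elane and Mpo had lower means at 4 and 8 h than at 0 h in both genotypes. At 0, 4 and 8 h, S100a8 means were 10.9, 13.2 and 17.4 in wild-type cells and 23.5, 20.3 and 22.6 in labelled knock-out cells. Those of S100a9 were 23.8, 23.7 and 22.4, and 41.3, 36.6 and 28.04. The 7 neutrophil markers summed to 174 to 175, 119 to 153, 63.0 to 89.1 and 16.3 to 19.01 at 0, 4, 8 and 24 h in labelled knock-out cells, and to 98.4 to 114, 69.8 to 88.8, 47.8 to 62.9 and 5.25 to 7.83 in wild-type cells. The 4 B-cell markers, almost all of it Ighm, summed to 145 to 178, 22.7 to 34.3, 4.34 to 8.79 and 0.516 to 0.881 in labelled knock-out cells, and to 107 to 144, 14.2 to 25.9, 2.80 to 6.85 and 0.379 to 1.21 in wild-type cells. The 4 dendritic-cell markers, mostly Xcr1, went the opposite way to the 150 genes, summing to 1.43 to 3.04, 20.1 to 33.5, 7.01 to 19.1 and 2.03 to 4.43 in labelled knock-out cells, and to 1.63 to 2.27, 17.6 to 29.3, 12.6 to 25.9 and 2.88 to 9.94 in wild-type cells. The 4 megakaryocyte and erythroid markers, mostly Pf4, summed to 22.3 to 73.2 up to 8 h, and at 24 h to 409 and 70.1 in labelled knock-out libraries 22 and 23, and to 304, 433 and 27.5 in wild-type libraries 10, 11 and 12. The 4 stromal markers summed to 17.97, 27.1, 66.1 and 30.03 in labelled knock-out libraries 14, 17, 20 and 23, against 1.42 to 6.75 in the other 7 and at most 4.55 in wild-type libraries. The T-cell and mast-cell lists summed to at most 0.406 and 0.268, with Cd3e and Ms4a2 at or near 0. The part of these markers in the results was not tested.

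In labelled knock-out libraries, which took no part in the choice, all 150 genes fell at 4 h against 0 h in edgeR's quasi-likelihood test (adjusted p under 0.05, Benjamini-Hochberg over 18083 genes), where 34.1% of all genes tested were called lower. Their log2 fold changes ran from -5.99 to -1.88, with a median of -2.91 beside -0.10 over all genes, and the largest adjusted p was 0.00197. None was called higher, beside 28% of all genes. All 150 had passed the count filter. Again all 150 rose at 24 h against 4 h, where 29.5% of all genes were called higher, with log2 fold changes of 1.25 to 7.08 and a median of 2.77 beside 0.04 over all genes. None was called lower there, with 26.1% of all genes called lower. At 24 h against 0 h, 110 were not called, 15 were higher and 25 lower, against a background of 22.6% higher and 20.8% lower. The 2 comparisons with 4 h share the same 4 h libraries, and they are given side by side for that reason only. The 3 conditions of the rule, applied to labelled knock-out libraries, were met by 132 of the 150 genes (88.0%) and by 602 of 18083 genes tested (3.33%), or of 9311 genes with at least 10 CPM in labelled knock-out cells at 0 h (6.47%). Of the other 18, 17 stood below 50% at 24 h and Pigyl fell under 10 CPM at 0 h.

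**Figure D1:**
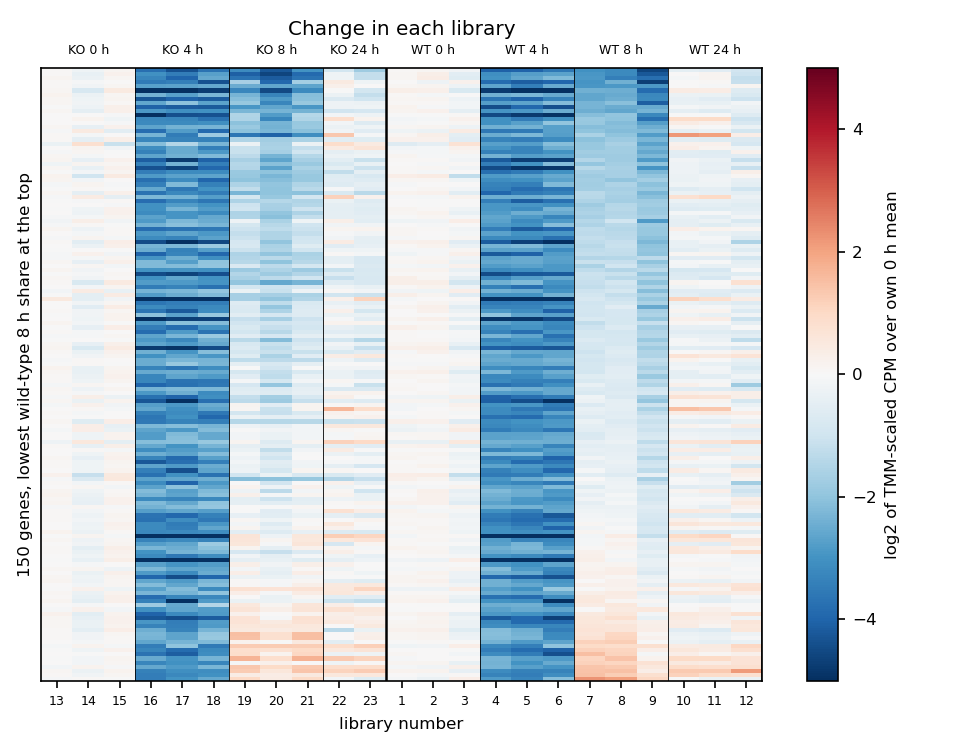
Log2 of TMM-scaled CPM over the mean of the same genotype's 0 h libraries (colour), for 150 genes (rows, lowest wild-type 8 h share at the top) in 23 libraries (columns; labelled knock-out left, wild-type right). Every 4 h column is blue throughout, the 24 h columns are mostly pale, and the 8 h columns run from blue at the top to pale or red at the bottom.

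The median gene stood, as TMM shares of its own genotype's 0 h mean, at 13.3%, 58.9% and 84.5% after 4, 8 and 24 h in labelled knock-out cells, and at 13.3%, 53.6% and 88.4% in wild-type cells. The 4 h libraries lay close together, with library medians of 12.1%, 12.6% and 13.9% in labelled knock-out cells and 12.4%, 12.1% and 12.5% in wild-type cells. At 8 h they did not. Labelled knock-out library 20 had a median of 44.8%, against 64.4% and 65.6% in libraries 19 and 21, and wild-type library 9 had 37.1%, against 59.5% and 62.9% in libraries 7 and 8. Libraries 14, 20 and 23, and 3, 9 and 12, were the lowest of their groups at 0, 8 and 24 h. They belong to a set of 8 libraries (3, 6, 9, 12, 14, 17, 20 and 23) that stood apart in an earlier analysis, and a term for that set was tried in the fit. The labelled knock-out libraries of that set (14, 17, 20 and 23) are those with the highest stromal sums, and the part of these markers in the spread was not tested. The 4 libraries with near wild-type Selenow did not stand apart, with medians of 103%, 12.1%, 64.4% and 89.6% at 0, 4, 8 and 24 h.

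**Figure D2:**
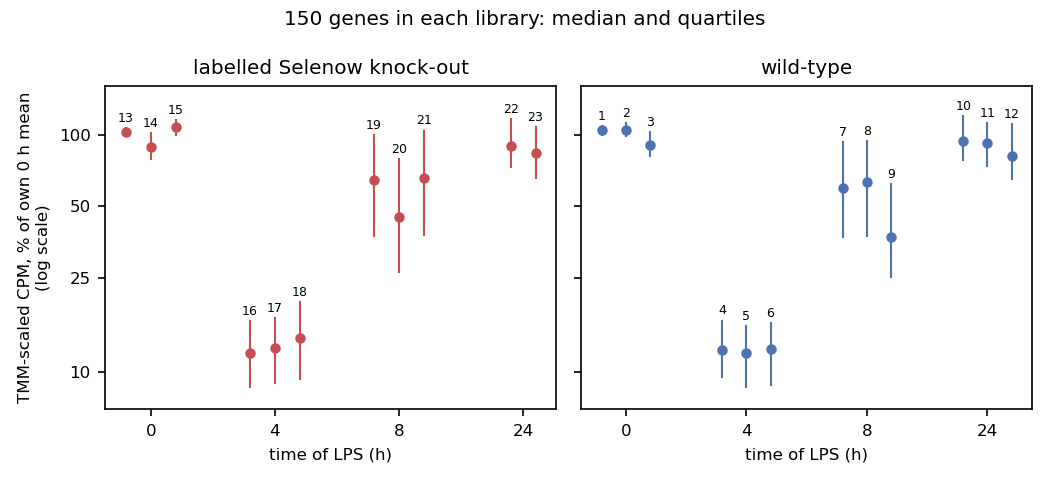
Median (point) and quartiles (line) over the 150 genes of TMM-scaled CPM as a percentage of the same genotype's 0 h mean, on a log scale, for each numbered library by hours of LPS; labelled knock-out left, wild-type right. The 4 h medians lie between 12.1% and 13.9%, and libraries 20 and 9 lie below the others of their groups at 8 h.

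The promoters were read from RefSeq (GRCm38.p6) as the 250 bases before the gene's start in that table, which can differ from the start in the annotation used for counting. That of Osgin1 lies inside the annotated span of the gene. Only 103 of the 150 genes matched the promoter table, under 80%, so a check of base composition over the set is void. Motifs are therefore given as letters found, on either strand, in 250 bases before to 50 after the start. The E-box CACGTG, which the clock and MYC-family factors bind, was present in 14 of 103 promoters (13.6%), beside 11.2% of 7103 promoters of genes with at least 10 CPM at 0 h and 7.24% of all 27025. The AP-1 motif TGANTCA was present in 11 (10.7%), beside 4.73% and 7.93%. The GC box GGGCGG was present in 68 (66.0%), beside 67.3% and 35.9%. GAGGAAGT, a core bound by the myeloid ETS factor PU.1, was in 6 (5.83%), beside 3.58% and 3.28%. The consensus letters of NF-κB and of the interferon-stimulated response element were found in none of the 103, beside 0.366% and 3.24% of the genes with at least 10 CPM. FoxO (GTAAACA) letters were in 2 (1.94%), beside 2.51% of the genes with at least 10 CPM and 3.55% of all promoters. The CRE letters TGACGTCA were in 1 (0.971%), that of Zfand2a, beside 3.34% and 1.88%.

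The promoters of Cxcr4, Per1, Cipc, Osgin1 and Inpp5d are shown because these genes represent the late and the early return and hold the motifs counted above. Each promoter is 5′ to 3′ on the gene's strand, with a single kind of motif in capitals (GGGCGG, read as CCGCCC on this strand, in Cxcr4, CACGTG in Per1 and Cipc, TGACTCA in Osgin1, GAGGAAGT in Inpp5d). Other counted motifs are left in lower case, such as the GC box in Per1, Cipc and Osgin1.
Cxcr4: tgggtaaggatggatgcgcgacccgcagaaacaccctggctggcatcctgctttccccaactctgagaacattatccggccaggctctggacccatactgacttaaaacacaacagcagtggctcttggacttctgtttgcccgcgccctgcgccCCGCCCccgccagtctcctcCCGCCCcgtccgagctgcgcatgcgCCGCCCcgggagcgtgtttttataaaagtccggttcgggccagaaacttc
Per1: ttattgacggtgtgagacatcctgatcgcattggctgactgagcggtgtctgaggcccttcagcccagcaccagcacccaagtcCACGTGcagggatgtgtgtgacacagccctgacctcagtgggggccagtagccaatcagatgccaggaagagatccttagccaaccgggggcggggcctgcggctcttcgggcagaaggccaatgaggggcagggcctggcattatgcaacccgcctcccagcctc
Cipc: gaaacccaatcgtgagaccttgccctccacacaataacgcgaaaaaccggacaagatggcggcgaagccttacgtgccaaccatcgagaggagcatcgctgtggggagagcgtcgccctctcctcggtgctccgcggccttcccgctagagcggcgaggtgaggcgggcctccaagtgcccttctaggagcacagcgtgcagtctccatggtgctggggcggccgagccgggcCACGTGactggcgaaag
Osgin1: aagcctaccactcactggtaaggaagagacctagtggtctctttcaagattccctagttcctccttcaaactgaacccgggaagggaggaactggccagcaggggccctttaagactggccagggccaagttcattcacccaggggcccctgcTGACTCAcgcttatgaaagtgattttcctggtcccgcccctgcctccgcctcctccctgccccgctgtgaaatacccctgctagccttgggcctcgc
Inpp5d: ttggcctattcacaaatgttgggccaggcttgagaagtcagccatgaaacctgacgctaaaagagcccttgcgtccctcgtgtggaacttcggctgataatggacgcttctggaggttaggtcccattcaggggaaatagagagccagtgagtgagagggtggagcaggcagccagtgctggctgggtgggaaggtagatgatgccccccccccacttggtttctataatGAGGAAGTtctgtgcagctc
Their positions are chr1:128592300-128592549 (minus strand) for Cxcr4, chr11:69098699-69098948 (plus strand) for Per1, chr12:86947093-86947342 (plus strand) for Cipc, chr8:119436897-119437146 (plus strand) for Osgin1, chr1:87620062-87620311 (plus strand) for Inpp5d. Per1 and Cipc each hold 1 E-box, 166 and 17 bases before the start, and differ in their 24 h values (given below). A match is a string of letters and no measure of binding.

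Surface receptors were 9 of the 150 genes by a role grouping made after the genes were known. At 8 h in wild-type cells, 7 of them stood between 25% and 50% of their 0 h level on column totals. All 9 fell at 4 h and rose at 24 h against 4 h in labelled knock-out cells, with a median log2 fold change of 3.38 for the rise. Counts by role, here and below, are descriptions to be read beside the whole set, in which 150 of 150 fell at 4 h and 139 of 150 rose at 8 h against 4 h. Cxcr4 (ENSMUSG00000045382, chr1:128588199-128592293, minus strand, GRCm38), the receptor for the chemokine CXCL12 that holds leukocytes in bone marrow, ranked among the 4 lowest. Cxcr4 had 203, 109 and 262 TMM-scaled CPM in labelled knock-out libraries at 0 h, 4.97, 2.46 and 7.18 at 4 h, 19.7, 8.33 and 20.8 at 8 h, and 188 and 100.9 at 24 h. Wild-type Cxcr4 levels were 219, 213 and 105 at 0 h, 6.48, 4.82 and 2.99 at 4 h, 34.1, 32.6 and 12.4 at 8 h, and 235, 233 and 115 at 24 h. No 4 h or 8 h library reached the lowest 0 h library of its genotype, and the 24 h libraries overlapped those at 0 h. In labelled knock-out cells Cxcr4 fell at 4 h against 0 h (log2 fold change -5.30 ± 0.57, adjusted p = 1.77e-07) and rose at 24 h against 4 h (log2 fold change 4.90 ± 0.58, adjusted p = 1.13e-06), with standard errors after the ± sign here and below. At 8 h against 4 h it had a log2 fold change of 1.75 ± 0.50 (adjusted p = 0.00805), a call lost without libraries 13, 16, 19 and 22 (adjusted p = 0.0792).

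S1pr1, a receptor for the lipid sphingosine 1-phosphate that guides leukocyte exit from tissue, had 92.5, 79.9 and 96.7 TMM-scaled CPM in labelled knock-out libraries at 0 h, 7.19, 4.92 and 10.3 at 4 h, 53.3, 30.5 and 56.8 at 8 h, and 106 and 49.02 at 24 h. Wild-type S1pr1 levels were 85.5, 96.7 and 67.9 at 0 h, 11.4, 9.58 and 5.004 at 4 h, 44.4, 45.9 and 26.3 at 8 h, and 92.1, 95.3 and 51.5 at 24 h. In both genotypes the group means ran, from low to high, through 4, 8, 24 and 0 h. S1pr1 fell at 4 h (log2 fold change -3.59 ± 0.39, adjusted p = 1.77e-07) and rose at 24 h against 4 h (log2 fold change 3.38 ± 0.40, adjusted p = 1.21e-06). Tlr13, a sensor of bacterial ribosomal RNA, had 379.9, 349.6 and 379 TMM-scaled CPM in labelled knock-out libraries at 0 h, 35.6, 41.9 and 31.4 at 4 h, 195, 165 and 215 at 8 h, and 429 and 395 at 24 h. Wild-type Tlr13 levels were 346, 359 and 315 at 0 h, 38.7, 35.3 and 53.99 at 4 h, 251, 229 and 144 at 8 h, and 444, 479.9 and 435 at 24 h. Its 24 h libraries lay above every 0 h library in both genotypes after TMM, but not on column totals. There the labelled knock-out libraries had 465 and 405 at 24 h, below 483, 477 and 468 at 0 h. The wild-type libraries overlapped, with 470, 515 and 428 at 24 h and 450, 467 and 420 at 0 h. Tlr13 fell at 4 h (log2 fold change -3.35 ± 0.20, adjusted p = 8.22e-11), rose at 8 h against 4 h (log2 fold change 2.40 ± 0.19, adjusted p = 1.34e-08), and at 24 h against 0 h had a log2 fold change of 0.16 ± 0.20 (adjusted p = 0.553). Cd300lb, an activating receptor of the CD300 family, had 270.1, 196 and 281 TMM-scaled CPM in labelled knock-out libraries at 0 h, 12.8, 4.57 and 18.5 at 4 h, 102, 71.1 and 112 at 8 h, and 174 and 158 at 24 h. Wild-type Cd300lb levels were 266, 268 and 193 at 0 h, 14.2, 11.1 and 5.43 at 4 h, 196, 174 and 63.04 at 8 h, and 262, 269 and 132 at 24 h. Within their groups, libraries 17 and 6 were low at 4 h and libraries 20 and 9 at 8 h. Cd300lb fell at 4 h (log2 fold change -4.38 ± 0.50, adjusted p = 4.03e-07). Gpr146, an orphan receptor linked to cholesterol in the circulation, fell (log2 fold change -4.72 ± 0.38, adjusted p = 4.7e-09) and rose (log2 fold change 3.99 ± 0.39, adjusted p = 1.22e-07). C5ar2, the second receptor for complement C5a, was still at 2.65 TMM-scaled CPM at 8 h, beside 1.26 at 4 h (means of 3 labelled knock-out libraries). That rise (log2 fold change 1.07 ± 0.30, adjusted p = 0.00731) was lost without libraries 13, 16, 19 and 22 (adjusted p = 0.0628).

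**Figure D3:**
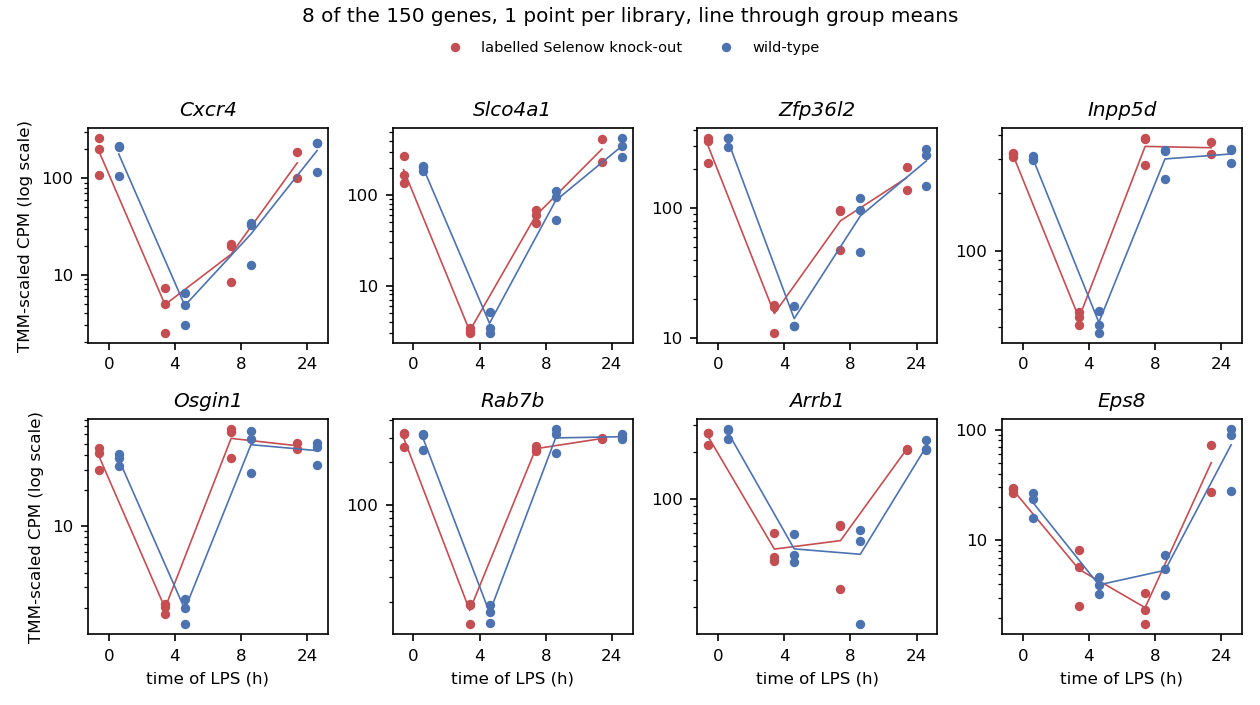
TMM-scaled CPM (log scale) of 8 genes against hours of LPS, 1 point per library, lines through group means, labelled knock-out in red left of wild-type in blue. Inpp5d, Osgin1 and Rab7b are back near 0 h at 8 h, Cxcr4 and Arrb1 are not, and Eps8 is lowest at 8 h in labelled knock-out libraries.

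Channels and transporters made up 8 genes, of which all fell at 4 h and rose at 8 h and at 24 h against 4 h in labelled knock-out cells. Slco4a1 (ENSMUSG00000038963, chr2:180456245-180474867, plus strand), an organic anion transporter that carries thyroid hormone, was the second lowest in wild-type cells, at 1.27% of 0 h on column totals. Slco4a1 had 269.6, 134 and 168 TMM-scaled CPM in labelled knock-out libraries at 0 h, 2.99, 3.14 and 3.39 at 4 h, 60.5, 48.6 and 69.2 at 8 h, and 230.2 and 413 at 24 h. Wild-type Slco4a1 levels were 183, 202 and 207 at 0 h, 5.11, 3.04 and 3.39 at 4 h, 112, 96.3 and 52.7 at 8 h, and 426, 348 and 265 at 24 h. Every 4 h library was far below every 0 h library. Slco4a1 fell at 4 h (log2 fold change -5.91 ± 0.36, adjusted p = 1.27e-10), and rose over 4 h at 8 h (log2 fold change 4.23 ± 0.34, adjusted p = 1.56e-08) and at 24 h (log2 fold change 6.66 ± 0.38, adjusted p = 2.6e-10). At 24 h against 0 h it had a log2 fold change of 0.75 ± 0.31 (adjusted p = 0.059). That comparison passed the threshold without library 13 (adjusted p = 0.0126), without library 22 (0.0218), without all 4 libraries with near wild-type Selenow (0.00936) and with a term for the library set (0.0206). Cnnm2, which acts in magnesium handling, had 0.648, 0.595 and 0.585 TMM-scaled CPM at 4 h and 1.44, 1.801 and 1.46 at 8 h, against 10.7, 9.08 and 13.04 at 0 h, in labelled knock-out libraries. These groups did not overlap, and Cnnm2 fell at 4 h (log2 fold change -4.16 ± 0.18, adjusted p = 3.48e-12) and at 8 h (log2 fold change -2.80 ± 0.16, adjusted p = 1.6e-10), both against 0 h.

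Regulators of small GTPases and of the actin cytoskeleton were 18 genes. All 18 fell at 4 h in labelled knock-out cells, and 15 rose at 8 h against 4 h, beside 139 of all 150. Plekhg3, a guanine nucleotide exchange factor, fell (log2 fold change -4.55 ± 0.35, adjusted p = 2.21e-09), and so did Arhgef10l, another (log2 fold change -3.45 ± 0.20, adjusted p = 7.96e-11). At 8 h Plekhg3 had a log2 fold change of -1.79 ± 0.30 (adjusted p = 4.73e-05) against 0 h and Arhgef10l had a log2 fold change of -0.01 ± 0.18 (adjusted p = 0.961). Mtss1, a membrane-bending protein that binds actin, had 189.8, 155 and 199 TMM-scaled CPM in labelled knock-out libraries at 0 h, 13.5, 8.901 and 14.1 at 4 h, 20.6, 9.597 and 22.7 at 8 h, and 95.6 and 52.2 at 24 h. Wild-type Mtss1 levels were 168, 175 and 146 at 0 h, 9.76, 10.2 and 13.6 at 4 h, 19.95, 17.9 and 6.77 at 8 h, and 116, 109 and 83.4 at 24 h. The 4 h and 8 h libraries overlapped in both genotypes, with libraries 20 and 9 lowest at 8 h. Mtss1 had a log2 fold change of 0.54 ± 0.34 (adjusted p = 0.207) at 8 h against 4 h in labelled knock-out cells, which among the alternatives run passed only without library 20 (log2 fold change 0.83, adjusted p = 0.0488), and rose by 24 h (log2 fold change 2.61 ± 0.38, adjusted p = 1.14e-05). It was still lower at 24 h than at 0 h (log2 fold change -1.29 ± 0.39, adjusted p = 0.0109), a call lost without library 23 (adjusted p = 0.168).

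Eps8, which caps and bundles actin filaments, had 29.7, 27.01 and 29.2 TMM-scaled CPM in labelled knock-out libraries at 0 h, 5.77, 2.54 and 8.101 at 4 h, 2.34, 1.75 and 3.32 at 8 h, and 73.03 and 27.4 at 24 h. Wild-type Eps8 levels were 23.8, 26.7 and 15.8 at 0 h, 3.94, 4.7 and 3.26 at 4 h, 7.402, 5.495 and 3.21 at 8 h, and 100.6, 89.7 and 27.8 at 24 h. Library 17 was low at 4 h and libraries 23 and 12 were low at 24 h. Its mean was lower at 8 h than at 4 h in labelled knock-out libraries (log2 fold change -1.14 ± 0.49, adjusted p = 0.0613), a difference that passed the threshold without library 17 (adjusted p = 0.0201), with the library-set term (0.00501), with no filter (0.043) and in DESeq2 (0.0304). Rnf150, which encodes a RING finger protein, was the single gene of the 150 called lower at 8 h than at 4 h, and it is named because of that value. It had 4.29, 3.01 and 4.92 TMM-scaled CPM at 8 h and 8.92, 6.71 and 11.1 at 4 h in labelled knock-out libraries, against 8.18, 6.6 and 3.18 and 7.28, 9.04 and 9.45 in wild-type libraries. The labelled knock-out groups did not overlap (log2 fold change -1.13 ± 0.36, adjusted p = 0.0162), but the call was lost without library 18 (adjusted p = 0.0674), without library 20 (0.0684) or without libraries 13, 16, 19 and 22 (0.0701). A total of 782 bases of its exons overlap the predicted locus Gm45449 on the other strand, also one of the 150, and unstranded counts cannot tell them apart.

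Kinases, adaptors and enzymes of inositol lipids made up 14 genes, all of which fell at 4 h, and 13 rose at 8 h against 4 h. Inpp5d (ENSMUSG00000026288, chr1:87620312-87720507, plus strand), the phosphatase SHIP that removes the lipid product of PI 3-kinase, had 322, 307 and 317 TMM-scaled CPM in labelled knock-out libraries at 0 h, 48.1, 41.1 and 45.3 at 4 h, 385, 278 and 383 at 8 h, and 368 and 318 at 24 h. Wild-type Inpp5d levels were 299.9, 311 and 297 at 0 h, 41.3, 37.4 and 48.8 at 4 h, 329.9, 335 and 235 at 8 h, and 337, 334 and 285 at 24 h. Groups at 8 and 24 h overlapped that at 0 h, with libraries 20 and 9 lowest at 8 h. Inpp5d fell (log2 fold change -2.81 ± 0.15, adjusted p = 4.64e-11), rose by 8 h (log2 fold change 2.96 ± 0.16, adjusted p = 1.59e-10), and at 8 h against 0 h had a log2 fold change of 0.14 ± 0.14 (adjusted p = 0.4). Arrb1, a beta-arrestin that ends signalling by G protein-coupled receptors, had 268, 224 and 265 TMM-scaled CPM in labelled knock-out libraries at 0 h, 41.9, 60.5 and 39.8 at 4 h, 67., 26.3 and 68. at 8 h, and 211 and 208 at 24 h. Wild-type Arrb1 levels were 279.8, 282 and 243 at 0 h, 39.4, 43.5 and 59.7 at 4 h, 53.6, 62.6 and 15.5 at 8 h, and 209, 206 and 242 at 24 h. Libraries 20 and 9 were again the lowest at 8 h. Arrb1 was lower at 8 h than at 0 h (log2 fold change -2.23 ± 0.38, adjusted p = 5.61e-05), and against 4 h it had a log2 fold change of 0.18 ± 0.37 (adjusted p = 0.71). By 24 h it had risen over 4 h (log2 fold change 2.14 ± 0.40, adjusted p = 0.000195). Sbk1, a kinase with an SH3-binding region, fell (log2 fold change -3.71 ± 0.53, adjusted p = 5.6e-06) and at 8 h had 3.25, 0.672 and 3.21 TMM-scaled CPM in labelled knock-out libraries, of which library 20 was lowest.

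Transcription and chromatin factors were the largest role group, 22 genes, all lower at 4 h and 21 higher at 8 h than at 4 h in labelled knock-out cells. Per1, a repressor of the circadian clock, had 28.1, 24.2 and 32.96 TMM-scaled CPM in labelled knock-out libraries at 0 h, 2.93, 1.95 and 3.08 at 4 h, 51.5, 47.9 and 55.2 at 8 h, and 41.04 and 44.8 at 24 h. Wild-type Per1 levels were 33.9, 33.6 and 33.2 at 0 h, 3.02, 2.34 and 2.04 at 4 h, 74.4, 71.4 and 42.1 at 8 h, and 49.98, 44.1 and 58.8 at 24 h. Every 8 h and 24 h library lay above every 0 h library of its genotype after TMM. On column totals wild-type library 9 had 36.7 at 8 h, below 44.1, 43.7 and 44.3 at 0 h. Per1 fell (log2 fold change -3.42 ± 0.22, adjusted p = 2.4e-10) and at 8 h was above 0 h (log2 fold change 0.86 ± 0.19, adjusted p = 0.000812). The excess at 24 h (log2 fold change 0.59 ± 0.21, adjusted p = 0.0291) was lost without any single one of libraries 13, 14, 22 and 23 (adjusted p = 0.0655, 0.0969, 0.0645 and 0.158), without libraries 13, 16, 19 and 22 (0.142) and with upper-quartile scaling (0.0716). Cipc, an inhibitor of the CLOCK protein, was picked because of its values. It fell as well (log2 fold change -3.44 ± 0.24, adjusted p = 7.2e-10) but stayed lower than at 0 h after 24 h (log2 fold change -1.10 ± 0.25, adjusted p = 0.00149). Without libraries 13, 16, 19 and 22 that call was lost (adjusted p = 0.0565). Of 16 clock genes tested from a list, 10 were lower and 1 higher at 4 h in labelled knock-out cells, with a median log2 fold change of -1.73 beside -0.10 over all genes and background shares of 34.1% lower and 28% higher. At 24 h against 4 h, 8 were higher and 2 lower, with 29.5% and 26.1% of all genes called. Against 0 h at 24 h, 8 of the 16 were lower and 2 higher, with a median of -0.34, where 20.8% and 22.6% of all genes were called.

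Foxo3, a factor held out of the nucleus by AKT, had 91.3, 65.7 and 100.0 TMM-scaled CPM in labelled knock-out libraries at 0 h, 9.36, 8.74 and 9.15 at 4 h, 60.5, 41.6 and 59.7 at 8 h, and 72.5 and 67.5 at 24 h. Wild-type Foxo3 levels were 79.2, 84.6 and 56.9 at 0 h, 13.1, 9.99 and 8.34 at 4 h, 65.2, 62.7 and 39.4 at 8 h, and 72.7, 74.2 and 90.02 at 24 h. It fell (log2 fold change -3.24 ± 0.23, adjusted p = 9.77e-10) and rose by 24 h (log2 fold change 2.95 ± 0.24, adjusted p = 1.56e-08). At 8 h the 3 labelled knock-out libraries lay below all of that genotype's 0 h libraries. The glucocorticoid-induced genes Klf9 and Tsc22d3 (the leucine zipper protein GILZ), were still below their 0 h level at 24 h in labelled knock-out cells. Klf9 had 11.7, 7.33 and 17.3 TMM-scaled CPM in labelled knock-out libraries at 0 h, 1.91, 2.002 and 2.22 at 4 h, 2.797, 2.93 and 3.296 at 8 h, and 4.34 and 5.39 at 24 h. Wild-type Klf9 levels were 10.02, 9.098 and 5.78 at 0 h, 1.105, 1.48 and 1.83 at 4 h, 8.52, 6.6 and 2.68 at 8 h, and 8.105, 6.92 and 8.77 at 24 h. The labelled knock-out libraries at 8 h and 24 h stayed below every one at 0 h. Klf9 fell (log2 fold change -2.57 ± 0.35, adjusted p = 3.83e-06), and its rise at 24 h against 4 h (log2 fold change 1.25 ± 0.38, adjusted p = 0.00859) was lost without library 23 or without libraries 13, 16, 19 and 22 (adjusted p = 0.0663 and 0.0662). Its shortfall at 24 h against 0 h (log2 fold change -1.32 ± 0.38, adjusted p = 0.00867) was lost without library 22 (adjusted p = 0.0813) or without those 4 libraries (0.142). Tsc22d3 stood at 19.5 and 12.99 TMM-scaled CPM at 24 h, against 35.3, 24.4 and 39.9 at 0 h, in labelled knock-out libraries, and at 24.6, 23.7 and 21.98 against 35.3, 36.4 and 21.8 in wild-type libraries. The labelled knock-out difference (log2 fold change -1.03 ± 0.27, adjusted p = 0.00515) was lost without library 23 (adjusted p = 0.108). Fli1, an ETS factor of blood cells, fell (log2 fold change -3.09 ± 0.18, adjusted p = 6.2e-11) and was still below 0 h at 8 h (log2 fold change -1.67 ± 0.17, adjusted p = 9.73e-08). Mef2d had a log2 fold change of 0.23 ± 0.18 (adjusted p = 0.263) in the same comparison, after it fell at 4 h (log2 fold change -2.19 ± 0.18, adjusted p = 7.52e-09). Klf16 and Pcgf2, a Polycomb protein, fell with a log2 fold change of -2.53 ± 0.23 (adjusted p = 1.58e-08) for Klf16 and a log2 fold change of -2.12 ± 0.20 (adjusted p = 3.71e-08) for Pcgf2.

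Of the 3 mRNA-binding genes, Zfp36l2 (ENSMUSG00000045817, chr17:84183931-84187947, minus strand) encodes a protein that binds AU-rich elements and speeds mRNA decay. Zfp36l2 had 329.7, 222 and 343 TMM-scaled CPM in labelled knock-out libraries at 0 h, 17.4, 10.9 and 18.02 at 4 h, 96.6, 47.3 and 94.97 at 8 h, and 205 and 136 at 24 h. Wild-type Zfp36l2 levels were 344, 342 and 292 at 0 h, 17.6, 12.4 and 12.3 at 4 h, 119, 95.6 and 45.5 at 8 h, and 286, 256 and 148 at 24 h. No library after LPS reached the lowest 0 h library of its genotype, and libraries 20 and 23, and 9 and 12, were the lowest at 8 and 24 h. Zfp36l2 fell (log2 fold change -4.27 ± 0.38, adjusted p = 1.52e-08) and rose (log2 fold change 2.37 ± 0.35, adjusted p = 2.31e-05) by 8 h and (log2 fold change 3.47 ± 0.38, adjusted p = 5.4e-07) by 24 h, both against 4 h. At 24 h against 0 h it had a log2 fold change of -0.81 ± 0.38 (adjusted p = 0.0922), and this passed with the library-set term (adjusted p = 0.00712) and in a fit of the compared groups alone (0.04999). A predicted locus on the other strand, also among the 150, shares 105 exonic bases with it.

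Of 6 genes of lysosomes, autophagy and nutrient sensing, 5 stood at 50% or more of 0 h at 8 h in wild-type cells on column totals, beside 44 of all 150, with no test. Rab7b, a GTPase of late endosomes that directs Toll-like receptors to lysosomes, had 319, 256 and 327 TMM-scaled CPM in labelled knock-out libraries at 0 h, 19.2, 13.9 and 19.3 at 4 h, 248, 241 and 264 at 8 h, and 299.9 and 294 at 24 h. Wild-type Rab7b levels were 322, 314 and 247 at 0 h, 19.2, 17.03 and 14.2 at 4 h, 346, 318 and 235 at 8 h, and 305, 320.2 and 293 at 24 h. Outside 4 h the libraries stayed within 241 to 327 in labelled knock-out cells and 235 to 346 in wild-type cells. Rab7b fell (log2 fold change -4.11 ± 0.18, adjusted p = 3.89e-12), rose by 8 h (log2 fold change 3.85 ± 0.18, adjusted p = 3.75e-11), and at 8 h against 0 h had a log2 fold change of -0.26 ± 0.16 (adjusted p = 0.157), which passed with the library-set term (adjusted p = 0.0352). Fnip2, a folliculin partner in amino acid sensing by mTORC1, had 516, 336 and 573 TMM-scaled CPM in labelled knock-out libraries at 0 h, 45.4, 13.2 and 67.2 at 4 h, 373, 388 and 414 at 8 h, and 225 and 202 at 24 h. Wild-type Fnip2 levels were 489, 502 and 303 at 0 h, 53.7, 51.9 and 13.6 at 4 h, 614, 457 and 457 at 8 h, and 337, 297 and 352 at 24 h. Its 4 h libraries spread widely, from library 17 to 18 in labelled knock-out cells and with library 6 lowest in wild-type cells. Fnip2 fell (log2 fold change -3.50 ± 0.49, adjusted p = 4.52e-06) and rose by 8 h (log2 fold change 3.23 ± 0.48, adjusted p = 2.46e-05). At 24 h against 0 h it had a log2 fold change of -1.15 ± 0.51 (adjusted p = 0.0758), which passed in a fit of the compared groups alone (adjusted p = 0.0144). Wdr81, which acts in endosome and autophagy traffic, fell (log2 fold change -3.66 ± 0.22, adjusted p = 1.2e-10). Of 17 listed genes of sestrins and mTORC1 restraint, 2 were among the 150, Fnip2 and Tsc22d3. Of the 17, 12 were lower and 4 higher at 4 h in labelled knock-out cells, where 34.1% and 28% of all genes were called. At 24 h against 4 h, 11 were higher and 4 lower, where 29.5% and 26.1% of all genes were called, and at 24 h against 0 h, 3 were higher and 9 lower (median log2 fold change -0.60), where 22.6% and 20.8% were called.

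The remaining 70 genes had no role assigned here. The lowest of all 150 in wild-type cells was Fam83f (ENSMUSG00000022408, chr15:80671847-80700425, plus strand), of a family that binds casein kinase. Fam83f had 12.6, 9.74 and 15.6 TMM-scaled CPM in labelled knock-out libraries at 0 h, 0.124, 0.189 and 0.277 at 4 h, 9.24, 9.65 and 8.38 at 8 h, and 9.23 and 10.6 at 24 h. Wild-type Fam83f levels were 11.03, 10.5 and 15.6 at 0 h, 0.0896, 0.266 and 0.238 at 4 h, 15.2, 11.3 and 9.56 at 8 h, and 12.6, 11.8 and 11.2 at 24 h. Every library at 4 h was far below those at the other times. At 8 h the labelled knock-out libraries lay just under those at 0 h, and the wild-type groups overlapped. Fam83f fell (log2 fold change -5.99 ± 0.31, adjusted p = 2.58e-11) and rose by 8 h (log2 fold change 5.51 ± 0.31, adjusted p = 2.74e-10). Osgin1 (ENSMUSG00000074063, chr8:119434124-119446256, plus strand), an oxidative stress response gene, had 41.9, 29.6 and 46.02 TMM-scaled CPM in labelled knock-out libraries at 0 h, 2.04, 1.79 and 2.19 at 4 h, 62.1, 37.8 and 66.2 at 8 h, and 50.95 and 44.9 at 24 h. Wild-type Osgin1 levels were 37.5, 40.9 and 32.02 at 0 h, 2.0, 2.39 and 1.46 at 4 h, 55.1, 63.6 and 28.2 at 8 h, and 50.9, 46.9 and 32.9 at 24 h. The 8 h libraries overlapped those at 0 h in both genotypes, with 20 and 9 the lowest at 8 h. Osgin1 fell (log2 fold change -4.29 ± 0.31, adjusted p = 1.2e-09), rose by 8 h (log2 fold change 4.79 ± 0.32, adjusted p = 2.03e-09), and at 8 h against 0 h had a log2 fold change of 0.50 ± 0.26 (adjusted p = 0.106). That difference passed without library 20 (adjusted p = 0.0302) and with the library-set term (0.00498). Pomk, a kinase that modifies the sugar chain of dystroglycan, fell (log2 fold change -4.80 ± 0.38, adjusted p = 3.23e-09). Tmem86a, an enzyme that breaks down lysoplasmalogens, fell (log2 fold change -4.68 ± 0.46, adjusted p = 5.17e-08), and Rassf3, a Ras-association protein, (log2 fold change -4.49 ± 0.19, adjusted p = 3.32e-12).

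Other genes named for their class at 8 h, or from a list, follow. Tmem104 and Lhfpl2, membrane proteins, were at 50% or more of their 0 h level by 8 h in wild-type cells on column totals. In labelled knock-out cells Tmem104 fell at 4 h (log2 fold change -3.02 ± 0.21, adjusted p = 7.15e-10) and rose at 8 h against 4 h (log2 fold change 3.64 ± 0.22, adjusted p = 5.25e-10), and Lhfpl2 fell (log2 fold change -3.57 ± 0.37, adjusted p = 1.09e-07) and rose (log2 fold change 4.30 ± 0.38, adjusted p = 5.78e-08). Iqsec1, an exchange factor for the GTPase ARF6, and Lonrf3, a RING finger protein, stood between 25% and 50% on column totals. Their wild-type TMM-scaled means at 8 h and 0 h were 79.9 and 118 for Iqsec1, and 21.04 and 35.2 for Lonrf3. Their log2 fold changes at 8 h against 4 h in labelled knock-out cells were 2.87 ± 0.33 and 2.36 ± 0.33 (adjusted p = 1.31e-06 and 1.04e-05). Sec22c, of the SNARE family between endoplasmic reticulum and Golgi, was at 25% or less on column totals. Wild-type TMM-scaled means of Sec22c were 5.47 at 8 h and 17.3 at 0 h. It had 5.67, 6.08 and 5.79 TMM-scaled CPM at 8 h and 16.4, 15.9 and 17.1 at 0 h in labelled knock-out libraries (log2 fold change -1.49 ± 0.14, adjusted p = 5.74e-08). Arrdc2, an alpha-arrestin, fell at 4 h (log2 fold change -3.39 ± 0.29, adjusted p = 8.32e-09) and at 8 h against 4 h had a log2 fold change of 2.45 ± 0.28 (adjusted p = 1.39e-06).

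The speed of return split the genes at 8 h, a time that the rule did not use, although the shares below have the wild-type 0 h libraries in common with it. In wild-type cells 44 genes stood at 50% or more of their 0 h level at 8 h (back by 8 h), 46 at 25% or less (still low), and 60 between, on column totals. With TMM scaling these became 80, 18 and 52. The classes were then read in labelled knock-out libraries. Their median 8 h shares there, on column totals, were 79.3%, 41.2% and 20.2% for the back, between and still-low classes. Against 4 h, 44 of 44, 58 of 60 and 37 of 46 genes had risen at 8 h, where 24.4% of all genes tested were called higher. Against 0 h, 2, 38 and 44 genes of the 3 classes were still lower at 8 h, with 31.9% of all genes called lower, and 14, 0 and 0 were higher, with 28.3% called higher. The median log2 fold changes at 8 h against 4 h were 3.28, 2.27 and 1.39. Over all 150 genes, 139 rose at 8 h against 4 h, 1 fell and 10 were not called, and the median was 2.27. Leaving out single libraries moved the 139 between 135 and 141.

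**Figure D4:**
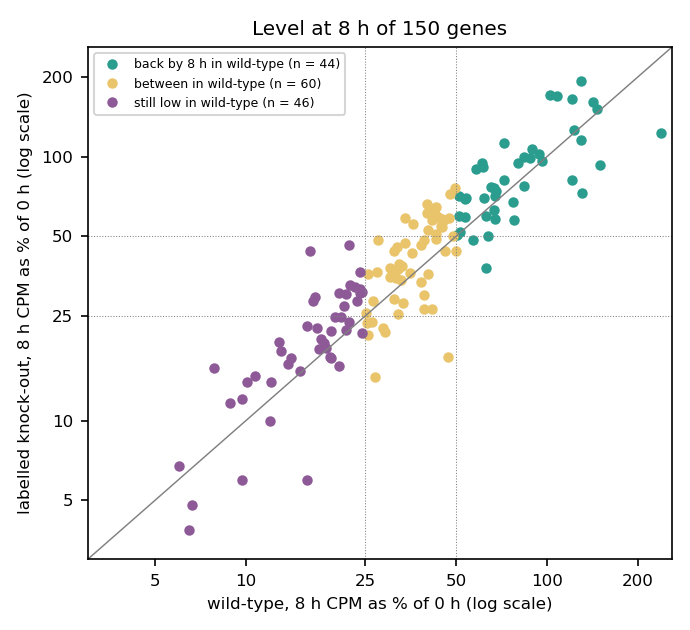
Share of the 0 h level at 8 h (CPM on column totals, log axes) of 150 genes in labelled knock-out (vertical) and wild-type cells (horizontal), coloured by wild-type class, with the line of equal shares and dotted lines at 25% and 50%. The 44, 60 and 46 genes of the classes back by 8 h, between and still low had medians of 79.3%, 41.2% and 20.2% in labelled knock-out cells.

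**Figure D5:**
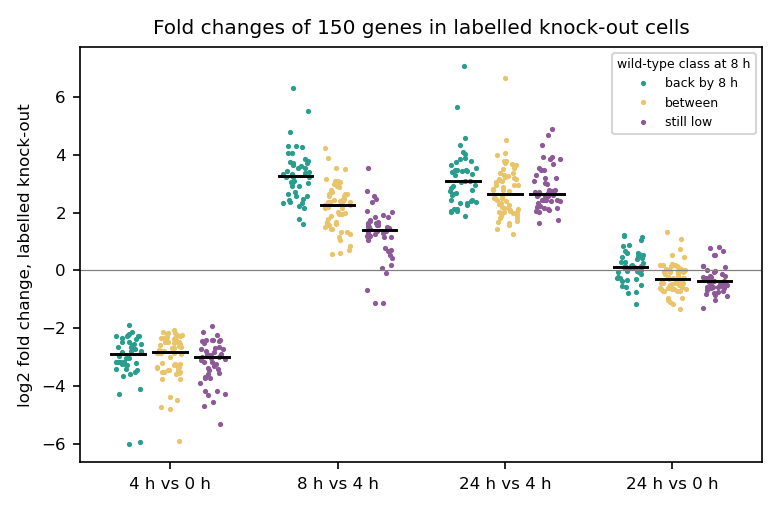
Log2 fold changes in labelled knock-out cells (edgeR, vertical axis) for 4 comparisons of times, 1 point per gene, with black bars at class medians. The classes, set in wild-type cells, have medians of 3.28, 2.27 and 1.39 at 8 h against 4 h.

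At 24 h the genes differed in how far they had returned. The 15 called higher than at 0 h in labelled knock-out cells included Narf, which binds prelamin A, Cdk20, a cyclin-dependent kinase, and Abi3, an actin regulator. Narf had 42.01 and 46.8 TMM-scaled CPM at 24 h, against 20.8, 16.03 and 21.9 at 0 h, in labelled knock-out libraries, and 45.8, 46.3 and 79.98 against 20.9, 20.6 and 13.9 in wild-type libraries. The times did not overlap in either genotype, and Narf was higher at 24 h in labelled knock-out cells (log2 fold change 1.18 ± 0.30, adjusted p = 0.0034). Abi3 had a log2 fold change of 1.22 ± 0.27 (adjusted p = 0.00143), lost without libraries 13, 16, 19 and 22 (adjusted p = 0.0512). Abi3 shares at least 70.1% of its exonic length (the overlap with a single gene) with genes on the other strand, so its count is uncertain. Cdk20 had a log2 fold change of 1.32 ± 0.40 (adjusted p = 0.0117), lost without library 22 (adjusted p = 0.177) or without those 4 libraries (0.264). Among the 25 called lower were Mtss1, Tsc22d3, Klf9 and Cipc, described above, and Rassf3 (log2 fold change -0.72 ± 0.18, adjusted p = 0.00367), which missed the threshold without library 23 (adjusted p = 0.0508). These counts depend on 2 libraries at 24 h. Without library 22 there were 7 higher and 18 lower, without library 23 there were 9 and 7, and without libraries 13, 16, 19 and 22 there were 3 and 9.

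Labelled knock-out and wild-type cells were tested against each other at 8 h only, since the other wild-type libraries chose the genes. Of the 150 genes, 1 was higher and 3 lower in labelled knock-out cells, where 0.796% of all genes were called higher and 1.4% lower, and the median log2 fold change of the 150 was 0.14. Zfand2a, a proteasome-associated protein made under heat shock and arsenite, had 109, 108 and 117 TMM-scaled CPM in labelled knock-out libraries and 238, 201 and 149 in wild-type libraries. The groups did not overlap (log2 fold change -0.82 ± 0.15, adjusted p = 0.00292). Impact, an inhibitor of the amino acid sensor GCN2, had 27.97, 34.5 and 29.5 in labelled knock-out libraries and 56.1, 52.9 and 41.9 in wild-type libraries, also without overlap (log2 fold change -0.71 ± 0.16, adjusted p = 0.02). Gdf15, a stress-induced cytokine, had 21.3, 14.3 and 20.7 in labelled knock-out libraries and 57.6, 51.1 and 24.7 in wild-type libraries (log2 fold change -1.25 ± 0.29, adjusted p = 0.0253), with wild-type library 9 near the labelled knock-out range. Tor4a, of the torsin ATPase family, had 163, 119.6 and 154 in labelled knock-out libraries and 91.7, 107 and 75.7 in wild-type libraries (log2 fold change 0.67 ± 0.15, adjusted p = 0.0224). Zfand2a was called without any 1 of the 6 libraries at 8 h. Impact was lost without library 7, 8, 19 or 21 (adjusted p = 0.133, 0.059, 0.128 and 0.0966), Gdf15 without library 7, 8, 19, 20 or 21 (0.186, 0.078, 0.0698, 0.0988 and 0.0762), and Tor4a without library 7, 9, 19 or 21 (0.0975, 0.112, 0.14 and 0.103). Without libraries 13, 16, 19 and 22 none of the 150 genes was called, with adjusted p of 0.0534 for Zfand2a, 0.234 for Impact, 0.11 for Gdf15 and 0.259 for Tor4a. A fit of the 2 groups alone also called none, with 0.079, 0.0651, 0.137 and 0.123 for the same genes. With a term for the library set, 4 were higher and 6 lower. At 0, 4 and 24 h the values are a description. The median TMM share at 4 h was 13.3% in labelled knock-out cells and 13.3% in wild-type cells.

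Annotated features were taken from GENCODE for the 142 genes with a coding transcript. The median 3′ untranslated region was 1588.5 bases long, beside 990 bases over 8738 genes with at least 10 CPM at 0 h. It was 1057.5 bases over 612 genes that stood at 25% or less at 4 h and below 50% at 24 h in wild-type cells. The pentamer AUUUA occurred 1.05 times per kilobase of that region at the median, beside 1.32 and 1.11. At least 1 such pentamer was present in 70.4% of the genes, beside 65.5% and 65.7%. The median number of exons was 8, beside 10 in both comparison sets, and the median exonic length was 4839 bases, beside 4729.5 and 4825. These are descriptions of a set chosen by its readout, without a test. Exons of 49 of the 150 genes overlap another gene. In 9, the overlap with a single gene is more than 50% of the length. Those counts are uncertain because strand was not used.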

How the data were processed

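RNA was total RNA from mouse bone marrow-derived macrophages, extracted on columns with DNase, and sequenced as 100 bp paired ends, per the labels' protocols. The deposited table holds raw counts of read pairs per gene for 23 libraries, made by the authors with featureCounts 2.0.1 over exons of Ensembl release 101 (GRCm38), per the file headers. Those headers also show that strand was not used, that pairs overlapping several genes added to every one of them, and that multi-mapping pairs were not counted. HISAT2 and DESeq2 are named in the submitters' processing notes without a version. No row lacks a gene ID. Symbols came from a GENCODE mouse table (release 21), which matched 55141 of 55401 IDs.

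From these counts, CPM on column totals chose the genes. TMM-scaled CPM gives the levels. Differences were tested with edgeR 4.0.16 (R 4.3.3, limma 3.58.1), by a quasi-likelihood F-test with filterByExpr, 8 group means and all 23 libraries, and Benjamini-Hochberg adjustment over all genes tested, with adjusted p under 0.05 as the threshold. The standard error is the log2 fold change over the root of F. Groups follow the labels, and the libraries' own numbers name them, since no number occurs in more than 1 group.

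The 150 genes, the gene and marker lists and the set of 8 libraries were chosen with earlier results of these data known, and role groups were assigned after the genes were known. Genes were named by rank in the rule, by the largest rises at 24 h against 4 h, by calls at 8 h between genotypes, by class at 8 h, by the largest 24 h share, and by membership of a gene list. Rnf150 and Cipc were picked because of their values. The alternatives were RLE and upper-quartile scaling, 2 other count filters, DESeq2 1.42.0, a stricter threshold, a fit of the compared groups alone, each library left out, libraries 13, 16, 19 and 22 left out, and a term for the set of 8 libraries. Some genes are not reported here.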

Additional observations from a re-analysis of the deposited data

How the results depend on the processing

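No paired analysis was possible because no library number in the labels occurs in more than 1 group. The set of 8 libraries, 1 in each group, comes from the data and not from the labels, and its term was fitted as an alternative that leaves the other libraries unpaired. The counts of genes lower at 4 h (150) and higher at 24 h against 4 h (150) in labelled knock-out cells stayed within 1.5 times under every alternative run, at 150 and at 149 to 150 with single libraries left out, and at 148 for the second without libraries 13, 16, 19 and 22, where Bend4 and Klf9 were lost (adjusted p = 0.059 and 0.0662). In labelled knock-out cells the counts at 8 h of genes higher than at 4 h and lower than at 0 h also stayed within 1.5 times. They were 135 to 141 and 75 to 87 when single libraries were left out. The count of 14 higher at 8 h than at 0 h was not followed through the alternatives. Counts at 24 h against 0 h did not stay within 1.5 times. The 15 higher became 6 at adjusted p under 0.01 and 3 without libraries 13, 16, 19 and 22, and 7 to 13 with single libraries left out. The 25 lower became 13, 9, and 7 to 34. At 8 h between genotypes, the 1 higher and 3 lower became 0 and 1 at adjusted p under 0.01, 4 and 6 with the library-set term, 0 and 0 without libraries 13, 16, 19 and 22, 0 and 0 in a fit of the compared groups alone, and 3 and 5 in DESeq2, with 0 to 5 and 1 to 8 when single libraries were left out. The cause was not tested. With TMM in place of column totals, 112 of the 150 genes were again chosen from 297 that met the conditions, and the 44 back by 8 h and 46 still low became 80 and 18, since TMM raises the later levels relative to 0 h. With single libraries left out, 129 to 145 of the 150 were again chosen, the classes held 37 to 54, 57 to 62 and 39 to 52 genes, and the conditions were met by 118 to 136 in labelled knock-out libraries. Of 300 comparisons of 50 named genes, 33 called ones lost their call under some alternative, 22 others gained one, and 0 of the called ones changed sign. Changes of sign were not counted for comparisons without a call, and the stricter threshold was not part of these counts. Limits are 2 libraries at 24 h in the labelled knock-out, 4 libraries whose Selenow level goes against the label, and unstranded counting that adds a pair to every gene it overlaps. At this depth the lowest levels at 4 h rest on few counts, and a count of 0 allows up to 0.0769 CPM.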
